A study of Mus musculus with 6 samples.

Results

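The genes described here are 39 subunits and cofactors of the machinery that makes and splices messenger RNA: RNA polymerase, Mediator, the general transcription factors, the small nuclear ribonucleoproteins (snRNPs), LSm proteins, splicing factors, hnRNPs and the RNA exosome. They were chosen by symbol, as every gene of the authors' deposited table whose name begins with Polr1 to Polr3, Med, Taf, Gtf2 or Gtf3, Snrp, Lsm, Sf3a or Sf3b, Srsf, Prpf, Hnrnp or Exosc, without pseudogene names. That gave 39 of the 1375 genes in the table, all protein coding. The table is itself a selection: each of its 1375 genes had a deposited p-value below 0.05 and a higher level in responders. The direction of the 39 genes was therefore set by the authors' selection and is no finding, and genes outside the table have no value here.

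RNA polymerase II is brought to a promoter by the general transcription factors, among them TFIID, which is built of TBP and its associated factors (Taf genes). Mediator passes signals from activators bound at enhancers to the polymerase. The transcript is then spliced by snRNPs, whose small RNAs are held in rings of Sm or LSm proteins, while SR proteins and hnRNPs bind the transcript and steer the choice of splice sites. Neurons, the cells with some of the widest use of alternative splicing, depend on these steps for their spliced messenger RNAs.

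RNA was sequenced from the prefrontal cortex (PFC) of 6 male C57bl/6j mice, siblings kept 3 to a cage. The responders (Res, n = 3) and the nonresponders (NR, n = 3) all carried the same strain background and all received ketamine, an NMDA receptor antagonist with antidepressant action, at 10 mg/kg intraperitoneally 24 hours before tissue collection. They differed in their label as responders or nonresponders to the drug, given from behaviour in novelty suppressed feeding and forced swimming; the cut-off used is not stated in the labels. No untreated mice were among the samples, so the values set ketamine-treated mice against each other, in bulk tissue that mixes all brain cells.

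Counts are given for the listed genes alone, so total depth is unknown. The scale by which the authors turned counts into FPKM (fragments per kilobase of gene, divided by a scale number for each library) lay between 14981505 and 19298950 reads. Of the 6 libraries, Res replicate 3 stood apart: over the 39 genes its Pearson correlations with the other libraries on log2(FPKM + 1) were 0.917 to 0.930, whereas the other pairs gave 0.986 to 0.993. Differences are given with and without it. In bulk tissue, fewer cells of a type and less RNA per cell cannot be told apart. Markers of other cells were also in the table. The 4 listed of 7 astrocyte markers summed to 245, 266 and 333 FPKM in Res replicates 1, 2 and 3, and to 192 to 217 FPKM in NR. In the same order, the 5 of 7 microglial markers summed to 95.0, 96.7 and 192 FPKM in Res, and to 72.1 to 84.6 FPKM in NR. The 5 of 7 leptomeningeal markers summed to 13.7, 12.5 and 19.3 FPKM in Res and 7.45 to 8.98 FPKM in NR. Of 3 choroid plexus markers 1 was listed, at 0.538, 0.525 and 0.530 FPKM in Res and 0.256 to 0.474 FPKM in NR. No listed marker was at 0 in any library, and their part in the results below was not tested. None of the 6 markers of cortical neurons, 5 of oligodendrocytes, 4 of endothelium and 4 of erythrocytes was listed, so the tissue label could not be checked against them.

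The largest differences of the 39 genes were in Snrpe and Lsm5, the smallest deposited p-value was that of Med29, and Hnrnpc had the smallest p in the refit without Res replicate 3. Their promoter sequence is shown for these reasons: each line gives the 150 bases before the start of transcription as RefSeq places it on GRCm38.p6 (mm10), 5′ to 3′ on the gene's own strand, which is the minus strand in all 4. Capitals mark CCAAT boxes (CCAAT, or ATTGG on the other strand) and GC boxes (GGGCGG, or CCGCCC on the other strand).
Snrpe, chr1:133610281-133610430: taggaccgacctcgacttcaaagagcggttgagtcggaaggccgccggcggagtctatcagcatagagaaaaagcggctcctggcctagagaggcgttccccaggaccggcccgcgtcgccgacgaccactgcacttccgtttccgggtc
Lsm5, chr6:56704700-56704849: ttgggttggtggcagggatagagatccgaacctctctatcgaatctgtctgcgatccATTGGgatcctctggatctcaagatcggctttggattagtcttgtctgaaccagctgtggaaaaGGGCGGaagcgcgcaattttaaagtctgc
Med29, chr7:28392691-28392840: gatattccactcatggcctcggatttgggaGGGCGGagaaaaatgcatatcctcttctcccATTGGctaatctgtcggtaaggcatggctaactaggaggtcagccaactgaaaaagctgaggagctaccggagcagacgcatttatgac
Hnrnpc, chr14:52104022-52104171: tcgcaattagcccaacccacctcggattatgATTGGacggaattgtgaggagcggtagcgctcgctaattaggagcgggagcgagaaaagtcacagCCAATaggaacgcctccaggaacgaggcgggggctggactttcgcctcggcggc
The Snrpe stretch held neither motif. Lsm5 and Med29 held 1 CCAAT box and 1 GC box each, and Hnrnpc 2 CCAAT boxes in opposite orientation. RefSeq windows of 300 bases, 250 before the start and 50 after it, were found for 29 of the 39 genes, which gave 31 windows. CCAAT was in 54.8% of these windows, 41.6% of the 1237 windows of listed genes and 37.4% of all 32851 windows, with both strands searched. In the same order, GGGCGG was in 54.8%, 57.7% and 35.7%, and the TATA box letters TATAAA in 12.9%, 8.97% and 13.6%. None of the motifs searched contains another. The ETS core CCGGAAG was in 29% of windows of the 39 genes, 18.9% of those of listed genes and 8.86% of all. The E-box CACGTG was in 19.4%, 9.78% and 7.15%, and the letters ATGGCG, the core that YY1 binds but also a start codon followed by an alanine codon, in 41.9%, 16.7% and 8.93%. YY1 and the ETS and NRF1 factors are regulators of many housekeeping genes. The palindromic NRF1 site was in 0 of the 31 windows, 2.75% of those of listed genes and 0.971% of all. The windows were rich in G and C, with a median of 60.33% over the 39 genes, 58.67% over listed genes and 52.67% over all. These are matches of letters in a window and not measured binding.

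As a group, the 39 genes had a median log2 difference of 0.59 in mean FPKM, Res over NR, beside 0.57 over all listed genes. Of the 39 genes, 0 passed an adjusted p of 0.05 in the authors' deposited table, a threshold that 1.38% of listed genes passed. Deposited adjusted p-values of the 39 ranged from 0.0982 for Med29 to 0.325 for Polr1d in the authors' deposited table. The counts were refitted with edgeR's quasi-likelihood test over all listed genes. In that refit 0 of the 39 passed an adjusted p of 0.05, as did 0% of listed genes. At an unadjusted p of 0.05, 5 of the 39 passed in edgeR, Med29, Hnrnpc, Snrpe, Srsf7 and Polr2k, a share of 12.8% beside 26.5% of listed genes. Leaving out NR replicate 1, 2 or 3 gave 0 of the 39 at that threshold each time, beside 7.35%, 6.33% and 8.51% of listed genes. Leaving out Res replicate 1 gave 17 of the 39 beside 57.2% of listed genes, leaving out Res replicate 2 gave 18 beside 40.7%, and leaving out Res replicate 3 gave 14 beside 60.2%. By DESeq2, 13 of the 39 passed the unadjusted and 0 the adjusted threshold, beside 42.5% and 0.0727% of listed genes. Because the listed genes were selected in the same mice, these refits describe them and are no second test. Scaled by DESeq2 size factors of the listed genes, which centre a table selected as higher in Res, the median log2 difference was 0.017 in the 39 genes and 0.014 in all listed genes. Under that scaling Gtf2h5, Hnrnpa3, Hnrnpk, Sf3b5, Srsf7, Srsf10 and Taf9b, of the 24 genes with values given below, lay below 0. With those size factors or with TMM, 1 of the 39 had an unadjusted edgeR p under 0.05, beside 5.09% of listed genes under either scaling. Each of the 6 libraries comes from 1 mouse, so the spread covers differences between mice and technical variation.

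Every Res library lay above every NR library in 23 of the 39 genes (59%), beside 73.5% of listed genes. The other 16 overlapped: Polr1d, Polr2c, Polr2d, Polr2f, Polr2g, Med30, Med31, Taf13, Gtf2h5, Snrpc, Snrpf, Snrpg, Lsm8, Sf3b5, Hnrnpab and Exosc9. In all 39, Res replicate 3 was the highest library by FPKM, as it was in 87.6% of listed genes. Its scale number, 14981505 reads, was the lowest of any library. By read count, Srsf10 and Hnrnpa3 were highest in Res replicate 1, at 1533 and 5004 reads beside 1300 and 4851 in Res replicate 3. Summed reads of the 39 genes were 35528, 32713 and 46060 in the Res replicates and 32493, 28609 and 31723 in the NR replicates. The summed FPKM of the 39 genes was 539, 553 and 965 in Res replicates 1, 2 and 3, and 483, 458 and 452 in the NR replicates. Res replicates 1 and 2 were thus near each other and moderately above NR, while Res replicate 3 was far above both. The level in Res replicate 3 over the mean of Res replicates 1 and 2 had a median of 1.87 in the 39 genes and 1.62 in all listed genes. Without Res replicate 3, the Res mean stayed above the NR mean in 39 of 39 genes, beside 99.9% of listed genes, and the median log2 difference was 0.23, beside 0.26. Res replicates 1 and 2 both lay above every NR library in the same 23 of the 39 genes, beside 74.1% of listed genes. That count could not change, since Res replicate 3 was the highest library in all 39. Scaled by DESeq2 size factors, 1 of the 39 did not overlap, beside 7.05% of listed genes, and 21 were highest in Res replicate 3, beside 37.7%.

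**Figure D1:**
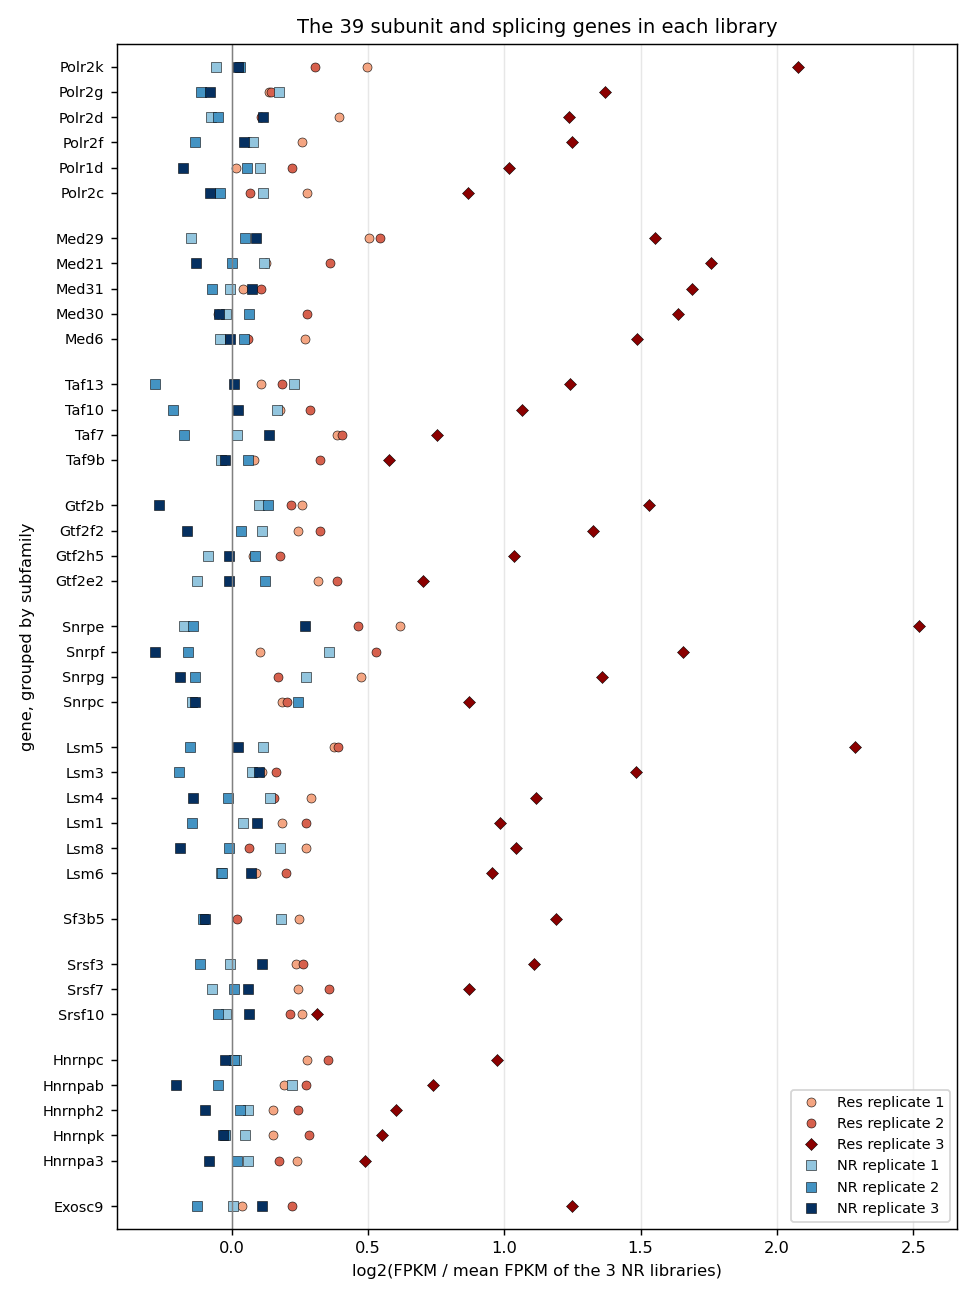
Levels of the 39 genes (rows, grouped by family) as log2 of FPKM over the mean FPKM of the 3 NR libraries (x axis), with 1 point for each library, red for Res and blue for NR. The diamond of Res replicate 3 lies farthest right in all 39 genes, and the circles of Res replicates 1 and 2 mix with the NR squares in the 16 genes whose groups overlap.

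Among the 6 listed subunits of RNA polymerase, Polr2k, a small zinc-binding subunit shared by all nuclear RNA polymerases, differed most. Polr2k stood at 11.97, 10.5 and 35.8 FPKM in Res replicates 1, 2 and 3, against 8.15, 8.68 and 8.64 FPKM in NR replicates 1, 2 and 3. The groups did not overlap, and the spread within Res came from replicate 3. Polr2k averaged 19.4 ± 14.2 FPKM in Res and 8.49 ± 0.293 FPKM in NR (SD, n = 3 each), a log2 difference of 1.19, or 0.40 without Res replicate 3. Its p in the edgeR refit was 0.0435 unadjusted, and 0.0716 without Res replicate 3. The annotation also names a Polr2k pseudogene, so its reads may be shared with a near copy. Only pseudogenes named after the 39 genes were searched, so near copies of any of them under other names are not known here. Polr2g, which forms the stalk of polymerase II together with Polr2d, had the highest level of the 6. Polr2g stood at 38.7, 38.9 and 91.0 FPKM in Res replicates 1, 2 and 3, against 39.7, 32.6 and 33.3 FPKM in the NR replicates. NR replicate 1 lay above Res replicates 1 and 2, so the difference of 0.68 on the log2 scale, 0.14 without Res replicate 3, rested on that library. Polr2d, the partner of Polr2g in the stalk, Polr2c, a core assembly subunit, Polr2f, shared by all nuclear polymerases, and Polr1d, shared by polymerases I and III, also overlapped between the groups. The log2 differences of these 4 were 0.66, 0.44, 0.62 and 0.49, and 0.26, 0.18, 0.17 and 0.12 without Res replicate 3. The catalytic subunits of the polymerases (Polr2a, Polr2b, Polr1a, Polr1b, Polr3a and Polr3b) were not listed.

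With all libraries, Mediator had the largest median log2 difference of any transcription group, 0.83 over its 5 listed subunits. It also had the largest excess of Res replicate 3, with a median of 2.85 times the mean of the other Res libraries. Without Res replicate 3 the median of Mediator was 0.168, the lowest of these groups, beside 0.171 in Polr, 0.221 in Taf and 0.262 in Gtf. The differences between these medians were not tested. Med29, a Mediator subunit of animals, stood at 8.09, 8.31 and 16.7 FPKM in Res replicates 1, 2 and 3, against 5.14, 5.91 and 6.07 FPKM in the NR replicates. Its Res replicates 1 and 2 lay above all 3 NR libraries by a wider margin than in the other 4 subunits. Med29 averaged 11.0 ± 4.92 FPKM in Res and 5.71 ± 0.496 FPKM in NR (SD, n = 3 each), 1.94-fold higher. Its log2 difference was 0.95, with a standard error of 0.36 from DESeq2, and 0.52 without Res replicate 3. Med29 alone passed an adjusted p of 0.1 in the authors' deposited table, at 0.0982, a level that 3.64% of listed genes passed. In the edgeR refit its unadjusted p was 0.0248, and 0.00488 without Res replicate 3. Med21, a subunit of the middle module, stood at 3.40, 4.01 and 10.6 FPKM in Res and 3.39, 3.12 and 2.85 FPKM in NR, in replicate order. Res replicate 1 was barely above NR replicate 1, so the log2 difference of 0.94 became 0.25 without Res replicate 3. Med30, found in animal Mediator, stood at 9.98, 12.5 and 32.2 FPKM in Res and 10.2, 10.8 and 10.0 FPKM in NR. Res replicate 1 of Med30 was below all 3 NR libraries. Med31, of the middle module, and Med6, of the head module, had log2 differences of 0.83 and 0.75, and 0.08 and 0.17 without Res replicate 3; the value of Med31 was the lowest of the 39 genes in that setting.

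With all libraries, the general transcription factors had smaller median log2 differences than Polr and Mediator, 0.546 in Taf and 0.609 in Gtf. Without Res replicate 3 the order of these medians was reversed, with 0.221 in Taf and 0.262 in Gtf beside 0.171 in Polr and 0.168 in Mediator. Each is a median of 4 to 6 genes, the ranges of the families overlapped, and the differences between the medians were not tested. Of the TBP-associated factors, Taf10, shared by TFIID and the SAGA coactivator, stood at 6.62, 7.15 and 12.3 FPKM in Res and 6.58, 5.04 and 5.96 FPKM in NR. Res replicate 1 and NR replicate 1 nearly met, and the log2 difference was 0.57, or 0.23 without Res replicate 3. Taf7, a TFIID subunit that contacts Taf1, stood at 2.76, 2.80 and 3.56 FPKM in Res and 2.14, 1.87 and 2.32 FPKM in NR, and its groups did not overlap. The difference of Taf7 rested less on a single library: it was 0.53 on the log2 scale with all libraries and 0.40 without Res replicate 3, with unadjusted edgeR p of 0.0584 and 0.0419. Taf9b, a close relative of Taf9 and the highest of the 4 in level, stood at 10.7, 12.7 and 15.1 FPKM in Res and 9.83, 10.5 and 9.94 FPKM in NR, with a log2 difference of 0.34, or 0.21 without Res replicate 3. Taf13, which pairs with Taf11 through histone folds, overlapped between the groups and had a log2 difference of 0.61, 0.15 without Res replicate 3.

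Gtf2b, the factor TFIIB that joins polymerase II to TBP at the promoter, stood at 6.02, 5.85 and 14.5 FPKM in Res and 5.39, 5.52 and 4.19 FPKM in NR. Res replicates 1 and 2 lay just above the highest NR library, and the log2 difference was 0.81, or 0.24 without Res replicate 3. Gtf2f2, the smaller subunit of TFIIF, stood at 9.03, 9.55 and 19.1 FPKM in Res and 8.25, 7.82 and 6.82 FPKM in NR, with no overlap and a log2 difference of 0.72, or 0.28 without Res replicate 3. Gtf2h5, the smallest subunit of TFIIH, a complex that also acts in DNA repair, stood at 15.3, 16.3 and 29.6 FPKM in Res and 13.6, 15.3 and 14.4 FPKM in NR. Its Res replicate 1 lay just below NR replicate 2, and its log2 difference of 0.50 became 0.13 without Res replicate 3. Gtf2e2, a subunit of TFIIE, did not overlap between groups, and its log2 difference of 0.48, 0.35 without Res replicate 3, was among the least dependent on that library.

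Of the snRNP proteins, Snrpe, Snrpf and Snrpg are neighbours in the Sm ring that surrounds the spliceosomal RNAs. Snrpe had the largest difference of the 39 genes. It stood at 8.98, 8.07 and 33.6 FPKM in Res replicates 1, 2 and 3, against 5.19, 5.30 and 7.06 FPKM in the NR replicates. Res replicates 1 and 2 were above every NR library, and Res replicate 3 was 3.94 times their mean. Snrpe averaged 16.9 ± 14.5 FPKM in Res and 5.85 ± 1.05 FPKM in NR (SD, n = 3 each), 2.89-fold higher. The log2 difference was 1.53, with a DESeq2 standard error of 0.54, and 0.54 without Res replicate 3. Despite that size its adjusted p in the authors' deposited table was 0.255; its unadjusted edgeR p was 0.0307, and 0.00263 without Res replicate 3. Snrpf stood at 7.15, 9.59 and 20.9 FPKM in Res and 8.52, 5.95 and 5.48 FPKM in NR, and Snrpg at 4.86, 3.94 and 8.97 FPKM in Res and 4.23, 3.19 and 3.07 FPKM in NR. In both, NR replicate 1 lay above 1 of the Res libraries, so the ring neighbours of Snrpe overlapped between groups. Their log2 differences were 0.92 and 0.76, and both were 0.33 without Res replicate 3. Snrpc, a zinc finger protein of the U1 snRNP that helps it hold the splice site, overlapped too, at a log2 difference of 0.46, or 0.19 without Res replicate 3.

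The 6 listed LSm proteins include Lsm1, which marks the cytoplasmic ring that acts in mRNA decay, Lsm8, which marks the nuclear ring on U6 RNA, and Lsm3, Lsm4, Lsm5 and Lsm6, which both rings share. Lsm5 stood at 2.75, 2.78 and 10.4 FPKM in Res replicates 1, 2 and 3, against 2.30, 1.91 and 2.16 FPKM in the NR replicates. The groups did not overlap, but Res replicate 3 was 3.75 times the mean of the other Res libraries. Lsm5 averaged 5.30 ± 4.39 FPKM in Res and 2.12 ± 0.196 FPKM in NR (SD, n = 3 each), 2.50-fold higher. Its log2 difference was 1.32, with a DESeq2 standard error of 0.61, and 0.38 without Res replicate 3, where its unadjusted edgeR p was 0.284. Lsm4, with the highest level of the 6, stood at 18.2, 16.6 and 32.3 FPKM in Res and 16.4, 14.8 and 13.5 FPKM in NR, with a log2 difference of 0.59, or 0.23 without Res replicate 3. Lsm1, the mark of the decay ring, and Lsm8, the mark of the splicing ring, had log2 differences of 0.53 and 0.52, or 0.23 and 0.17 without Res replicate 3, with overlap between groups in Lsm8. Lsm3 and Lsm6 did not overlap and differed by 0.74 and 0.47, or 0.14 and 0.15 without Res replicate 3. Reads were few in these genes: the 6 LSm genes held 26 to 771 reads per library, the lowest count of any of the 39 genes being that of an LSm gene.

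**Figure D2:**
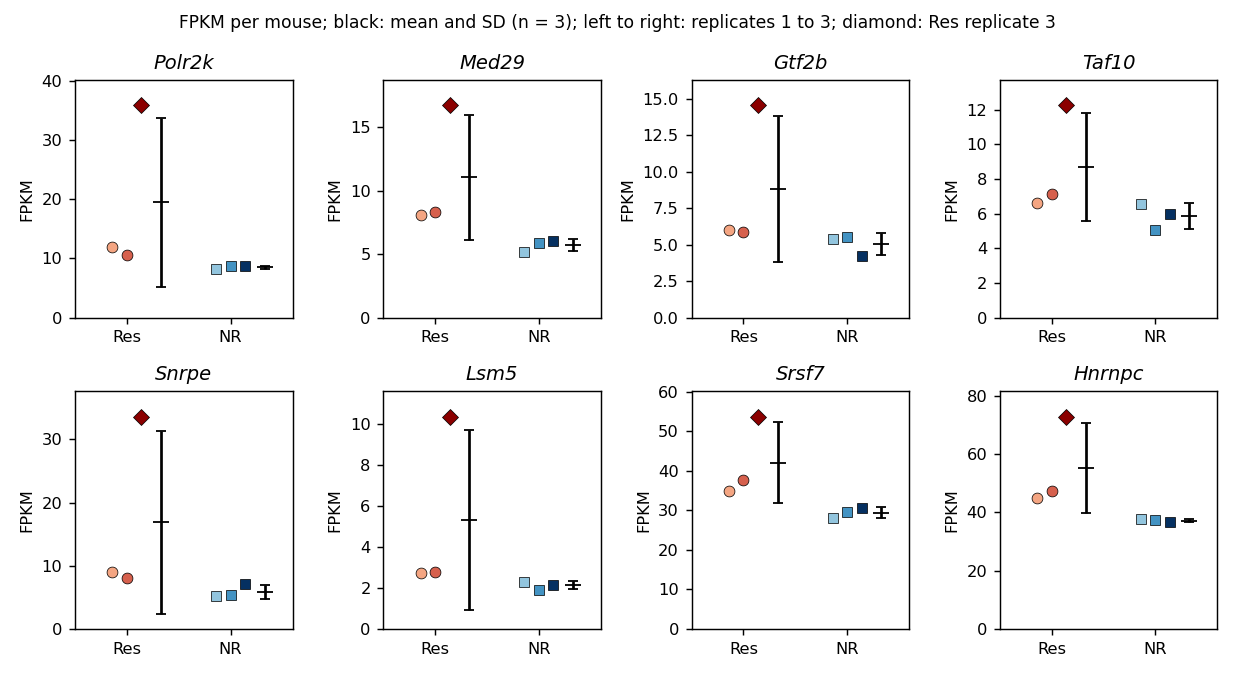
FPKM (y axis, from 0) of 8 genes in each library, Res left of NR, with 1 point for each mouse, the group mean and SD (n = 3) as a black tick and line, and Res replicate 3 as a diamond. Snrpe reaches 8.98, 8.07 and 33.6 FPKM in Res replicates 1, 2 and 3, while Hnrnpc and Srsf7 keep Res replicates 1 and 2 above all NR libraries with less excess in Res replicate 3.

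The splicing factors, hnRNPs and exosome gene had a smaller median difference, 0.47 on the log2 scale for the 10 genes beside 0.66 for the 19 transcription genes and 0.66 for the 10 snRNP and LSm genes. Res replicate 3 was a median of 1.45 times the mean of the other Res libraries in them, compared with 2.06 and 1.95 times. Without that library, the 3 medians were 0.23, 0.21 and 0.23. The differences between these medians were not tested.

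The 3 SR proteins did not overlap between groups. Srsf7, a regulator of splicing and of mRNA export, stood at 34.8, 37.6 and 53.7 FPKM in Res and 27.9, 29.6 and 30.6 FPKM in NR. Its log2 difference was 0.52, or 0.30 without Res replicate 3, and its unadjusted edgeR p was 0.0371 and 0.00140 in these settings. Srsf3, its closest relative among the 3, stood at 16.4, 16.7 and 30.0 FPKM in Res and 13.9, 12.8 and 15.04 FPKM in NR. For Srsf3 the log2 difference was 0.60, or 0.25 without Res replicate 3. Srsf10, a splicing repressor when it loses its phosphate groups, stood at 11.9, 11.6 and 12.4 FPKM in Res and 9.85, 9.65 and 10.4 FPKM in NR. Its 3 Res libraries lay close together, with Res replicate 3 only 1.05 times the mean of the other 2, and Srsf10 had both the smallest difference of the 39 genes, 0.26, and one of the least changed without Res replicate 3, 0.24. Its unadjusted edgeR p was 0.112 with all libraries and 0.00991 without Res replicate 3.

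The 5 hnRNPs were the most abundant group, with 1379 to 6948 reads per library. Hnrnpc, which binds uridine tracts in nascent transcripts, stood at 45.0, 47.4 and 72.8 FPKM in Res replicates 1, 2 and 3, against 37.5, 37.3 and 36.5 FPKM in the NR replicates. The NR libraries lay within about 1 FPKM of each other, and all 3 Res libraries lay above them. Hnrnpc averaged 55.0 ± 15.4 FPKM in Res and 37.1 ± 0.544 FPKM in NR (SD, n = 3 each), 1.48-fold higher, with a log2 difference of 0.57 and a DESeq2 standard error of 0.24. Its adjusted p was 0.127 in the authors' deposited table. Without Res replicate 3 the log2 difference of Hnrnpc was 0.32, and Hnrnpc was the 1 gene of the 39 with an adjusted p under 0.05 in that edgeR refit, at 0.0442, beside 5.45% of listed genes. Over 11 edgeR fits its adjusted p ranged from 0.0442 to 1. Hnrnpk, a binder of cytosine-rich RNA and DNA, stood at 54.5, 59.6 and 71.7 FPKM in Res and 50.7, 48.2 and 48.0 FPKM in NR. Hnrnpa3, of the hnRNP A and B family, stood at 50.6, 48.3 and 60.0 FPKM in Res and 44.6, 43.4 and 40.4 FPKM in NR. Neither overlapped between groups, and their log2 differences were 0.34 and 0.31, or 0.22 and 0.21 without Res replicate 3. Hnrnph2, a binder of G-rich RNA, differed by 0.35 without overlap, or 0.20 without Res replicate 3. Hnrnpab differed by 0.42, or 0.23 without Res replicate 3, with overlap, since NR replicate 1 lay above Res replicate 1.

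Sf3b5, a small subunit of the SF3b complex that holds the branch site in the U2 snRNP, stood at 5.82, 4.97 and 11.2 FPKM in Res and 5.56, 4.56 and 4.59 FPKM in NR. Exosc9, a subunit of the ring of the RNA exosome, which degrades RNA from its 3′ end, stood at 4.86, 5.52 and 11.3 FPKM in Res and 4.76, 4.34 and 5.12 FPKM in NR. In both genes an NR library lay above a Res library. Their log2 differences of 0.58 and 0.61 became 0.14 and 0.13 without Res replicate 3. No Prpf gene, of 13 annotated, was listed.

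Leaving out Res replicate 3 changed which genes passed. In the edgeR refit without it, 14 of the 39 had an unadjusted p under 0.05 (35.9%), beside 60.2% of listed genes, and 4 of the 5 that passed with all libraries were among them (all but Polr2k). By DESeq2 without it, 10 passed the unadjusted and 1 the adjusted threshold, beside 46.7% and 4.8% of listed genes. By role, in edgeR's refit without it, 8 of the 10 splicing factors, hnRNPs and exosome genes passed, namely all 5 hnRNPs and all 3 SR proteins. Of the 19 transcription genes 5 did, Med29, Gtf2b, Gtf2e2, Taf7 and Taf10, and of the 10 snRNP and LSm genes only Snrpe. The hnRNP and SR genes also held the most reads of the 39, 1157 to 6948 per library beside 26 to 1709 for the transcription, snRNP and LSm genes, and the part of read number in these counts was not tested.

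**Figure D3:**
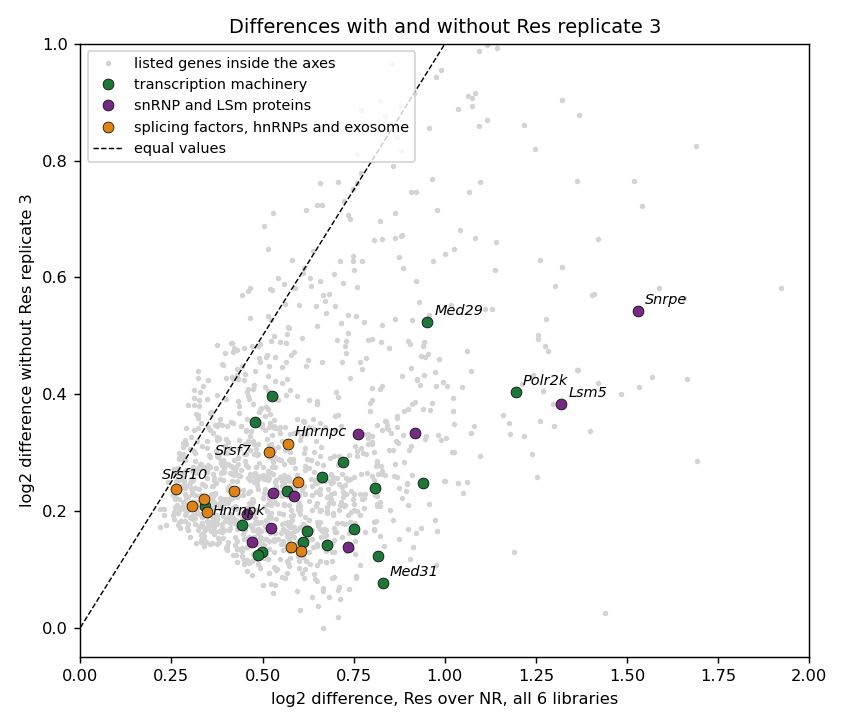
Log2 difference in mean FPKM, Res over NR, with all 6 libraries (x axis) and without Res replicate 3 (y axis) for the 39 genes, coloured by role, and the listed genes in grey, 98 of which lie outside the axes. Snrpe lies at 1.53 and 0.54, Srsf10 lies near the line of equal values at 0.26 and 0.24, and Med31 lies lowest of the 39 on the y axis at 0.08.

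In most of these families the listed genes had shorter coding lengths than those outside the table. Of 192 genes annotated under these names, 39 were listed (20.3%), beside 5.72% of all annotated protein coding genes. The annotation also holds genes that the authors did not test. Of the 14156 genes inferred to have been tested, 9.71% were listed, and how many of the 192 were among them is not known. The coding length of the main transcript had a median of 492 bases in the 39 genes, from 174 in Polr2k to 1389 in Hnrnpk, and 1320 bases in the 153 family genes outside the table. The same order held over the whole table, with 747 bases in 1256 listed protein coding genes and 1191 bases in 20695 others. Within families, the listed genes had the shorter median in Polr, Med, Taf, Gtf, Snrp, Lsm, Sf3, Srsf and Hnrnp. Mediator had 534 bases listed and 1764 bases not listed, LSm 297 and 585 bases, and hnRNP 1137 and 1347 bases. The exception was Exosc9, with 1314 bases beside a median of 822 bases in the exosome genes outside the table. Which of the genes outside the table the authors tested is not known here.

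Genes of shorter coding length also had more excess in Res replicate 3. The Spearman correlation of coding length with the level in Res replicate 3 over the mean of Res replicates 1 and 2 was -0.563 across the 39 genes and -0.528 across 1256 listed protein coding genes. With the deposited gene length in place of coding length, the correlations were -0.59 across the 39 genes and -0.452 across 1375 listed genes. By that measure the 39 genes were not short, with a median of 3093 bases beside 2877 bases in listed protein coding genes. These are correlations across genes of the same libraries, which are not independent replicates. The 19 genes under 492 coding bases, with 26 to 1709 reads per library, had a median excess of 2.07 times, and the 20 others, with 106 to 6948 reads, 1.59 times. Every Res library lay above every NR library in 8 of the 19 shorter and 15 of the 20 longer genes, and without Res replicate 3 the unadjusted edgeR p was under 0.05 in 1 and 13 of them. Of the listed protein coding genes cut at the same length, 205 of 315 shorter and 726 of 941 longer ones did not overlap, and 148 and 622 had such a p without Res replicate 3. Coding length bore almost no relation to the log2 difference without Res replicate 3 across the 39 genes (Spearman correlation 0.0577). Across 1252 listed genes that correlation was 0.17. The part of transcript length in the level of this library was not tested.

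**Figure D4:**
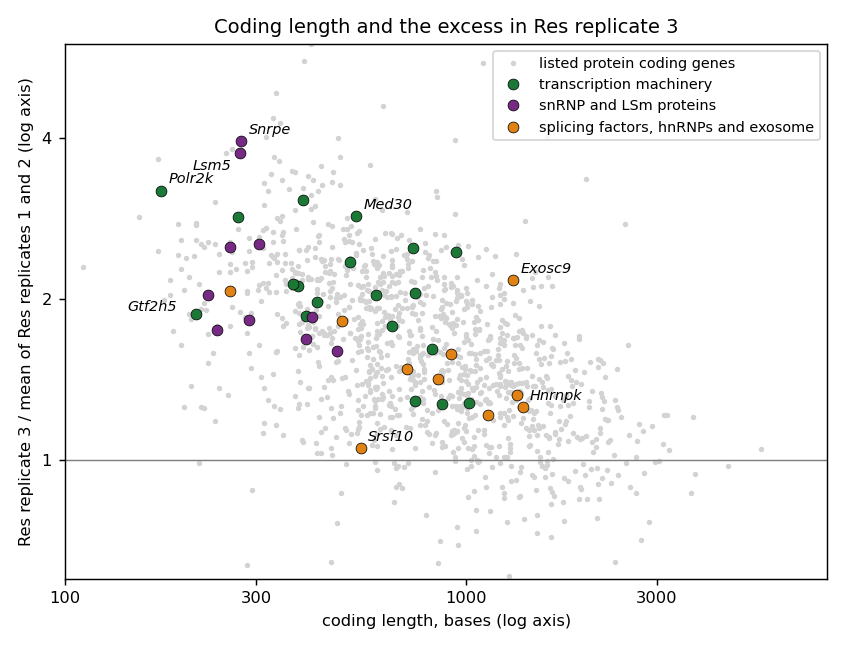
Level in Res replicate 3 over the mean of Res replicates 1 and 2 (log axis) against coding length in bases (log axis) for the 39 genes, coloured by role, with listed protein coding genes in grey, 6 of which lie outside the axes. Snrpe, Lsm5 and Polr2k, of short coding length, lie at 3.94, 3.75 and 3.19, and Hnrnpk, the longest of the 39 in coding length, at 1.26.

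Other genes of the same pathways were in part listed. Of 34 genes for cap binding and polymerase II elongation 6 were in the table, Ccnh, Eloc, Ncbp2, Ssu72, Supt4a and Tcea1. Of 70 other spliceosome genes found in the annotation 13 were, Bud31, Cwc15, Dhx15, Gemin7, Magoh, Plrg1, Rbm8a, Sap18, Snrnp27, Snrnp35, Snu13, Syf2 and Zmat2. Of the 31 genes searched for export, polyadenylation and decay 0 were. That search did not cover every gene of these steps. Cstf2t and Dcps, which it left out, were in the table, with log2 differences of 0.33 and 0.52, or 0.28 and 0.34 without Res replicate 3. None of the 19 genes found by the search passed an adjusted p of 0.05 in the authors' deposited table, beside 1.38% of listed genes. All 19 were highest in Res replicate 3 by FPKM, as were 87.6% of listed genes. Of the 19, 13 did not overlap between groups, beside 73.5% of listed genes. In edgeR's refit without Res replicate 3, 11 of the 19 had an unadjusted p under 0.05, beside 60.2% of listed genes. The median log2 difference of the 19 was 0.58, or 0.21 without that library, beside 0.57 and 0.26 over all listed genes. The 4 with the smallest deposited p-values are described next. Bud31, a spliceosome protein, stood at 17.3, 18.7 and 47.5 FPKM in Res and 14.7, 12.5 and 13.8 FPKM in NR, with a log2 difference of 1.02, 0.39 without Res replicate 3. Rbm8a, which binds Magoh in the exon junction complex, stood at 12.04, 12.4 and 18.8 FPKM in Res and 10.3, 8.73 and 8.91 FPKM in NR. Ccnh, the cyclin of the TFIIH kinase, stood at 16.9, 19.5 and 28.3 FPKM in Res and 15.3, 13.7 and 14.4 FPKM in NR, and Snu13, which binds U4 RNA, at 31.0, 32.5 and 62.5 FPKM in Res and 27.2, 26.4 and 26.6 FPKM in NR. The groups did not overlap in these 4 genes, and in edgeR's refit without Res replicate 3 their unadjusted p lay between 0.000562 and 0.00568. Their adjusted p in the authors' deposited table lay between 0.0995 and 0.178.

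By the table's mm10 positions, Snrpe (ENSMUSG00000090553) lies at chr1:133603871-133610291 on the minus strand, and Lsm5 (ENSMUSG00000091625) at chr6:56701063-56704710 on the minus strand. Med29 (ENSMUSG00000003444) lies at chr7:28386146-28392708 on the minus strand, and Hnrnpc (ENSMUSG00000060373) at chr14:52073377-52104028 on the minus strand. Polr2k (ENSMUSG00000045996) lies at chr15:36174010-36177010 on the plus strand. In GENCODE M21, 5 of the 39 genes are overlapped by another gene on the same strand and 17 by one on the opposite strand, while 20 overlap no other gene, Snrpe, Lsm5, Hnrnpc and Polr2k among them. The strand setting of the counting is not given in the sources used here, so reads of overlapping genes, Med29 among them, cannot be told apart.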

How the data were processed

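PolyA RNA of 6 mice was sequenced after a SMARTER library preparation, per the labels' protocols, with build mm10 given per the submitters' processing notes. Which aligner, counter and test the authors used is not stated in the labels or headers used here. The authors' deposited table gives read counts and FPKM per library, and a log2 fold change and p-values per gene, per the file headers. The authors' FPKM equalled the deposited count over gene length and 1 scale number per library. The authors' log2 fold change is NR over Res; the differences printed here are ratios of own group means, Res over NR. By their ranks, the deposited adjusted p-values were adjusted over 14156 genes after Benjamini and Hochberg (277 of 340 genes used gave a whole rank within 0.01). The counts of all 1375 genes in the table entered a refit by edgeR 4.0.16 (robust quasi-likelihood test, two-sided) and DESeq2 1.42.0 (Wald), with the authors' scale as library size and adjustment over 14156 genes. The edgeR and DESeq2 steps were both tested on simulated data, in which no library stood apart as Res replicate 3 does. Coding length is that of the APPRIS principal transcript in GENCODE M21. Members, lists and tests were chosen with earlier results of these data known. Values per library are given for any gene past the deposited threshold, for the 2 smallest deposited p-values and the highest mean FPKM in each family, and for the 3 largest and 3 smallest differences, which gave 24 genes. The Snrpe, Lsm5, Med29 and Hnrnpc promoters were chosen after their values were seen. The table's 6 value columns that match no label were not used.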

Additional observations from a re-analysis of the deposited data

How the results depend on the processing

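At an adjusted p of 0.1 in place of 0.05, 1 of the 39 genes passed in the authors' deposited table (3.64% of listed genes). In the refits, the 5 genes past an unadjusted p of 0.05 by edgeR (26.5% of listed genes) became 13 by DESeq2 (42.5% of listed genes). They became 1 with TMM and 1 with DESeq2 size factors (5.09% of listed genes with either), and 4 with the replicate number as a block (16.1% of listed genes). When single replicates were left out, the count was 0 to 18. The 0 genes came from leaving out any of the 3 NR replicates (6.33% to 8.51% of listed genes). Leaving out Res replicates 1, 2 and 3 gave 17, 18 and 14, beside 57.2%, 40.7% and 60.2% of listed genes. DESeq2 without Res replicate 3 gave 10 (46.7% of listed genes), a setting chosen after seeing the data. By adjusted p, the count of 0 became 0 to 1 when single replicates were left out, with 1 without Res replicate 3 (5.45% of listed genes). Without that library, DESeq2 gave 1 (4.8% of listed genes). With adjustment over the listed genes alone and Res replicate 3 left out, edgeR gave 10 (41% of listed genes). The last 2 settings were chosen after seeing the data. The count stayed at 0 by DESeq2, TMM, size factors, the filter on low counts and the block with all libraries.

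Scaling by DESeq2 size factors, which centres genes that were all selected as higher in Res, moved the median log2 difference over the whole table to 0.014, against 0.57 with the authors' scale, and that of the 39 genes to 0.017. It left 1 gene without overlap (7.05% of listed genes) and 21 highest in Res replicate 3 (37.7%). Under it the log2 difference turned negative for Gtf2h5 (-0.079), Hnrnpa3 (-0.19), Hnrnpk (-0.17), Sf3b5 (-0.0093), Srsf10 (-0.22), Srsf7 (-0.019) and Taf9b (-0.17). When single replicates were left out, 23 to 32 genes did not overlap (74.1% to 87.7% of listed genes). The 23 came from leaving out Res replicate 3, the highest library in all 39 genes, so that count could not change. The median log2 difference was 0.23 to 0.76 when single replicates were left out, and 0.46 and 0.52 with pseudocounts of 1 and 0.1.

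The labels do not say that replicate numbers pair the libraries. The correlations of same-numbered deviations were -0.06, -0.06 and -0.03, and those of other pairs ran from -0.03 to 0.10. Values this near 0 in so few libraries cannot decide whether the mice were paired. The block is therefore given as an alternative setting alone. Over the 24 genes with values per library and 7 alternatives each, 115 values kept their direction and their side of an unadjusted p of 0.05, 27 newly passed, 19 no longer passed and 7 turned negative. With 3 mice a group and 26 reads at the lowest, the precision was limited: the DESeq2 standard error reached 0.61 on the log2 scale in Lsm5.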
